A study of Mus musculus with 10 samples.

Results

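The comparison described here is that of DM with Npm1c hematopoietic stem and progenitor cells (HSPC), that is, what the Flt3-ITD allele adds to cells that already carry mutant Npm1. Chromatin accessibility was profiled by ATAC-seq, in which a transposase cuts open DNA, and each library is represented by the list of its accessible intervals (peaks). Both groups were bone marrow lineage negative cells of C57BL/6 mice carrying Npm1flox-cA/+ and Mx1-Cre+, so that both have the conditional Npm1c allele and the Cre driver. The DM group carries Flt3ITD/+ in addition. The labels state no age and no sex. Mx1-Cre is driven by an interferon-inducible promoter and recombines in many hematopoietic cells, not in stem cells alone. Of the 10 samples of the series, 4 entered this comparison (2 DM and 2 Npm1c), 4 further HSPC libraries (2 Flt3-ITD with Flt3ITD/+ alone, 2 wild-type, WT) were used for reference, and 2 neutrophil samples were not analysed here. Peaks on chromosomes 1 to 19 and X that touched by 1 bp or more across the 4 lists were joined into 94102 regions (median 425 bp), out of 103446 over all 8 HSPC lists. A region was gained when called in both DM libraries and in neither Npm1c library, and lost in the reverse case.

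Npm1 encodes nucleophosmin, a nucleolar chaperone, and the Npm1c mutation moves the protein to the cytoplasm. It is known for high HOX gene activity in myeloid leukemia. Flt3 encodes the receptor tyrosine kinase of progenitors that answers Flt3 ligand, and the internal tandem duplication (ITD) makes it signal without ligand through STAT5, RAS-MAPK and PI3K. The 2 lesions occur together in human acute myeloid leukemia. Accessible chromatin marks promoters, which are open in most cells, and enhancers, which differ between lineages: GATA1, TAL1 and KLF1 are factors of erythroid enhancers, and PU.1 (Spi1), C/EBP and IRF8 of myeloid ones.

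In DM, 26 of 27 erythroid genes tested had fewer bases covered by peaks than in Npm1c (29.9% of all genes did), and 115 of the 273 regions of erythroid genes were lost. More covered bases (31.7% of all genes) were found at 20 of 23 monocyte and macrophage genes, 21 of 25 dendritic cell genes, 11 of 16 neutrophil genes and 12 of 18 T and NK cell genes. The region set of Irf8 held the most gains of any gene. Socs2, Socs3, Pim1 and Ccnd1, known targets of STAT5, were covered more widely in both DM libraries. Of 40 genes tested of the JAK-STAT and FLT3 list, 23 had more covered bases and 5 fewer. Some genes of the list lost regions, such as Jak1 (14 of 35) and Bcl2 (8 of 33).

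The 6 promoters printed next show the comparison at the level of DNA. They were picked, with their sequences in view, from list genes with a gained or lost promoter so that a GATA, PU.1/ETS or IRF motif can be seen, and do not stand for all of them. Of the 10 erythroid genes that lost a promoter, Ermap, Gata1, Hbb-bt, Klf1 and Rhag have no GATA letters in these 250 bases, and the gained promoters of Ltf, Itgax, Ccr2 and Maff do. Each line gives 250 bases upstream of a RefSeq start site (GRCm38.p6, the assembly also named mm10), 5′ to 3′ on the gene's own strand, with capitals for letters that match a searched motif on either strand. The 3 genes lost in DM are Hbb-bs, an adult beta globin (chr7:103827929-103828178, minus strand), Kel, a red cell blood group protein (chr6:41704326-41704575, minus strand), and Epb42, a protein of the red cell membrane skeleton (chr2:121036878-121037127, minus strand). The capitals mark AGATAA, the GATA motif, in all 3, with TTGCNNAA (C/EBP) in Hbb-bs, TGANTCA (AP-1) in Kel and CAGCTG (E-box) in Epb42.
Hbb-bs: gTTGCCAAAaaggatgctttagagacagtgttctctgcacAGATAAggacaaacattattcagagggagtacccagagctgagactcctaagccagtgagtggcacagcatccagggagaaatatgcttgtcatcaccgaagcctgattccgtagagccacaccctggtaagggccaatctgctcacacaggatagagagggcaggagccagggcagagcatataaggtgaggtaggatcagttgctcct
Kel: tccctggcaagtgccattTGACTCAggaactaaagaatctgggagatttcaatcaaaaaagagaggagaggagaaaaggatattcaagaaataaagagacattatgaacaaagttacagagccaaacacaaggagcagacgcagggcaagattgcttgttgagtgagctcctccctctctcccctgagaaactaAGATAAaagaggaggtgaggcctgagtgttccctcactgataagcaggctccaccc
Epb42: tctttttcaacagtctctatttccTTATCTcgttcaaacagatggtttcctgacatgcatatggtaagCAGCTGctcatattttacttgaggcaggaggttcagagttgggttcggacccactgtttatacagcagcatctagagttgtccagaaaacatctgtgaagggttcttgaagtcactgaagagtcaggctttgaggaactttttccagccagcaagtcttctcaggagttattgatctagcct
The 3 genes gained in DM are Elane, neutrophil elastase (chr10:79886062-79886311, plus strand), Prtn3, proteinase 3 of the same granules (chr10:79879417-79879666, plus strand), and Ctss, cathepsin S, a protease of antigen-presenting cells (chr3:95526536-95526785, plus strand). The capitals mark GAGGAAGT (PU.1/ETS) in Elane and Prtn3, and in Ctss the IRF motif (GAAA, 2 bases of any kind, GAAA) with CAGCTG.
Elane: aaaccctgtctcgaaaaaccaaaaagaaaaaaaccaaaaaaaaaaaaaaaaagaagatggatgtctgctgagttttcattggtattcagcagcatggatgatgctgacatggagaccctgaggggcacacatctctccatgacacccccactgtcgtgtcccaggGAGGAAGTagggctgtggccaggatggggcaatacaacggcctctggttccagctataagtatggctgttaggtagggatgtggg
Prtn3: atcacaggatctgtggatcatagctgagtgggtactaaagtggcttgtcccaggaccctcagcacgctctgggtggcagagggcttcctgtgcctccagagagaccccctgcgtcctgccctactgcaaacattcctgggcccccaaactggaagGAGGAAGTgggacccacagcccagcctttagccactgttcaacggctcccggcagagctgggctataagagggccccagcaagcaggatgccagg
Ctss: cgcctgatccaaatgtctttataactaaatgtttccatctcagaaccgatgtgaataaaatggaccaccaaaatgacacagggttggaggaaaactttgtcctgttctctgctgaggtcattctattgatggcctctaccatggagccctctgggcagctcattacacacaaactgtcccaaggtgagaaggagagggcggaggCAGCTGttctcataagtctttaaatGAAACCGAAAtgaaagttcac
Peaks covered these windows at Hbb-bs, Kel and Epb42 in both Npm1c libraries and neither DM library, and at Elane, Prtn3 and Ctss in both DM libraries and neither Npm1c library. Both Flt3-ITD and both WT libraries also called Hbb-bs, Kel and Epb42. At Elane and Prtn3 both Flt3-ITD libraries and WT replicate 1 held a peak, and at Ctss Flt3-ITD replicate 2 alone.

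The libraries differed in ways that touch every count below. DM replicates listed 55597 and 63110 peaks and Npm1c replicates 62732 and 68620, which overlapped between groups (exact permutation test, two-sided, p = 0.667). Peaks covered 30.0 and 33.9 Mb in DM against 39.6 and 43.2 Mb in Npm1c, with no overlap (exact p = 0.333, the smallest that 2 against 2 allows). The median peak was 401 and 402 bp wide in DM and 418 and 417 bp in Npm1c. DM replicate 1 held peaks at 3 of 4 Y-linked genes examined (Eif2s3y, Uty and Ddx3y) and 1 peak at Xist, whereas DM replicate 2 and both Npm1c libraries held none at these genes and 3, 4 and 5 peaks at Xist. The labels give no sex, so counts are also given without DM replicate 1. No library has a read depth here, so the number of peaks is the only measure of depth, and a region without a peak may be open below the authors' calling threshold. Peak heights were not in the lists.

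Replicates resembled each other far more than the other group did. The Jaccard index of covered bases (shared over combined length) was 0.755 between the DM replicates and 0.783 between the Npm1c replicates, and 0.408 to 0.429 in the 4 pairs across groups. Of the 94102 regions, 32228 were called in all 4 libraries, 13164 were gained in DM (14.0%) and 20530 were lost (21.8%). Patterns in which only 1 library held a peak counted 8677 regions for DM replicate 2, 6552 for Npm1c replicate 2, 2465 for Npm1c replicate 1 and 1801 for DM replicate 1, so the longer list of each group held most of them. With each list cut to its 55597 widest peaks, 14933 regions were gained (15.9%) and 16807 were lost (17.9%). Of the gained regions 91.5% stayed gained and of the lost regions 78.4% stayed lost. Losses thus outnumbered gains in both counts, by a smaller margin at equal lengths. Without DM replicate 1, gained regions rest on DM replicate 2 alone and counted 21841, and lost regions counted 22085. On chromosomes 1 to 19 alone there were 13018 gained and 19911 lost regions.

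**Figure D1:**
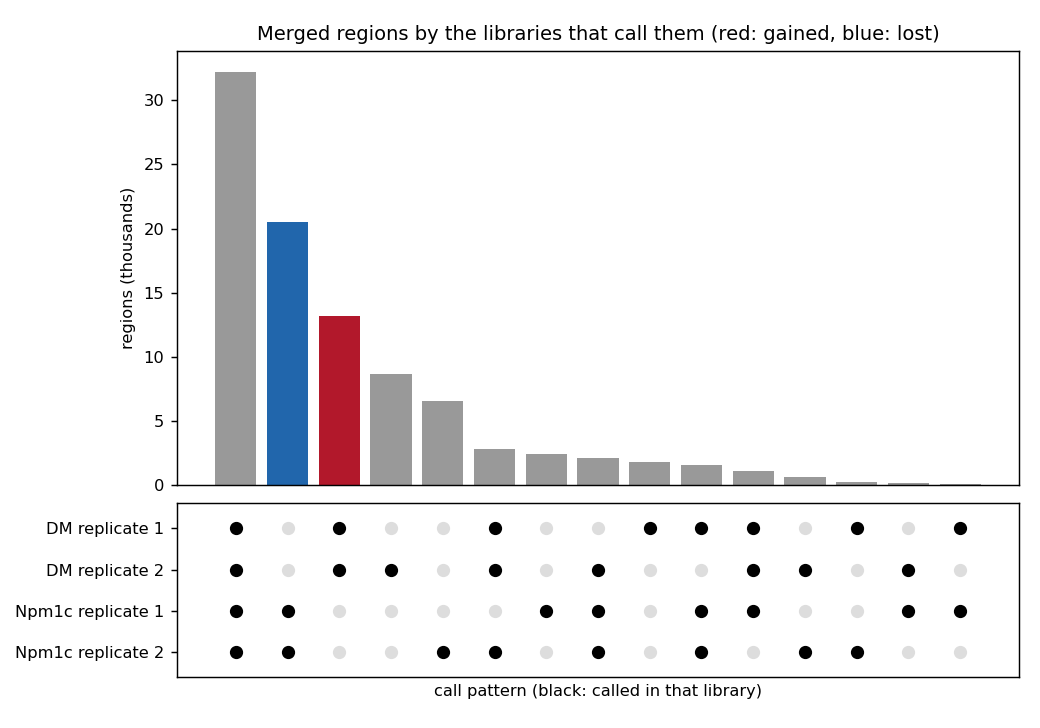
Number of merged regions (bars) for each of the 15 combinations of the 4 libraries that can call a region, with the libraries of each combination as black dots under the bar. After the 32228 regions called in all 4 libraries, the blue bar (20530 lost) and the red bar (13164 gained) are the tallest.

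Gained and lost regions lay mostly away from promoters. A promoter window (250 bases before to 50 after a start site; chromosomes other than 18) was overlapped by 2.93% of gained and 1.38% of lost regions, by 10.9% of all regions and by 27.4% of those called in all 4. The median distance to a start site was 26729 bp for gained, 29082 bp for lost and 22788 bp for all regions. Gained regions were narrow, with a median of 317 and 368 covered bp in the DM replicates, against 542 and 570 bp in regions called in all 4. Lost regions had a median of 371 and 394 covered bp in the Npm1c replicates, against 553 and 595 bp.

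The 2 sets also sat in different parts of the genome. A median of 13 genes lay within 500 kb of a gained region, 8 of a lost region and 10 of any region. Of the 27445 regions with the fewest genes nearby (0 to 6), 10.03% were gained and 28.4% lost. Of the 23260 regions with the most (19 to 72), 18.8% were gained and 13.04% lost. At equal list lengths these shares were 12.05% and 23.5% in gene-poor DNA, and 20.8% and 10.3% in gene-rich DNA. By chromosome, the gained share was highest on chromosomes 19 (21.7%) and 11 (21.1%), and the lost share on X (30.0%), 3 (28.3%) and 1 (27.4%). X held 1.78% and 1.83% of the peaks of DM replicates 1 and 2, and 2.43% and 2.50% in Npm1c. The DM replicates were alike in this share, although they differed at Y-linked genes. The part of sex in the X shares was not tested. Gene density goes with base composition, and the part of composition or depth in this pattern was not tested.

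At the gene level, regions were assigned to the gene that holds them or to the nearest gene within 100 kb, and the bases covered by peaks were summed per gene, scaled to the mean total of the 4 libraries and compared with limma on a log2 scale after adding 500 bases. Differences below are DM minus Npm1c on that scale, with SE, and levels are scaled kb of covered bases per gene, which depend on gene size and are not compared between genes. Of 13429 genes tested, 4260 had more covered bases in DM (31.7%) and 4013 had fewer (29.9%) at an adjusted p under 0.05. Both DM libraries lay above both Npm1c libraries at 5739 genes (42.7%) and below both at 5310 (39.5%). Without scaling, where the smaller covered total of DM lowers the median of all genes from 0.03 to -0.27, the counts were 2293 more and 5866 fewer. The share of called genes with more covered bases was then 28.1% in place of 51.5%. The labels call replicates biological but name no animals, so these p-values measure only the spread between these samples. In bulk chromatin, fewer cells of a type and less accessibility per cell cannot be told apart.

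Erythroid genes had fewer covered bases in DM throughout. Of 27 erythroid genes tested, 26 had fewer and 0 more, against 29.9% fewer among all genes, with a median of -1.37. The exception was Tfrc, the transferrin receptor, at 0.19 ± 0.11 (SE). Of the 273 regions of these genes, 115 were lost (42.1%) and 12 gained (4.40%). Car2, carbonic anhydrase 2, lost 14 of 22 regions and had 1.99 and 1.67 kb in DM against 16.6 and 14.5 kb in Npm1c. The groups did not overlap, and the difference was -2.78 ± 0.12 (adjusted p = 2.8e-05). Kel had 0 covered bases in both DM libraries and 3.24 and 3.30 kb in Npm1c, and Hbb-bs 0 in both against 2.43 and 2.22 kb. All regions of Hbb-bs, 3 in number, were lost. Rhag, a gas channel of the red cell, had 0.648 and 0.479 kb in DM against 6.60 and 5.40 kb (-2.61 ± 0.14, adjusted p = 3.47e-05). DM was the lower group without overlap.

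The transcription factors of the erythroid program followed. Klf1 had 1.01 and 1.03 kb in DM against 2.10 and 2.06 kb in Npm1c (-0.76 ± 0.10, adjusted p = 0.000723). Gata1 had 0.618 and 0.863 kb against 1.66 and 1.33 kb (-0.68 ± 0.14, adjusted p = 0.00556), and this call was lost without DM replicate 1 (-0.54, adjusted p = 0.0553) or without Npm1c replicate 1 (-0.56, adjusted p = 0.0872). Tal1, a partner of GATA factors, had 3.82 and 3.21 kb against 8.91 and 7.99 kb (-1.16 ± 0.12, adjusted p = 0.000316). Sox6, a repressor of embryonic globin genes, had the most lost regions of the list (17 of 34) and fell by 2.19 ± 0.12 (adjusted p = 3.56e-05). DM lay below Npm1c at each of these 4 factors in all libraries. Without DM replicate 1, 24 of the 27 erythroid genes were called with fewer covered bases and 0 with more, and without any single library at least 18.

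Of the 23 erythroid genes with a promoter window, 10 lost the promoter peak itself, against 266 of 17273 genes overall (1.54%): Alas2, Epb42, Ermap, Gata1, Hbb-bs, Hbb-bt, Kel, Klf1, Rhag and Sox6. Alas2 makes the first enzyme of heme synthesis in red cells. The GATA letters AGATAA, shown in capitals above for Hbb-bs, Kel and Epb42, were found in 22.9% of the 384 lost promoter windows, 4.28% of the 444 gained windows, 14.8% of windows called in none of the 4 libraries and 9.68% of all 21044 windows. The mean GC content was 52.1% in lost windows, 62.5% in gained windows, 49.0% in windows called in none of the 4 libraries and 56.4% in all windows. The part of base composition in these shares was not tested. The PU.1/ETS letters GAGGAAGT were found in 4.73% of gained, 0.260% of lost (1 window) and 3.15% of all windows. The other myeloid motifs did not follow. C/EBP letters were in 7.66% of gained, 13.8% of lost and 10.3% of all windows. For the IRF motif the shares were 3.38%, 3.91% and 3.38%. A match describes the letters in the window and does not show that a factor was bound there.

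**Figure D2:**
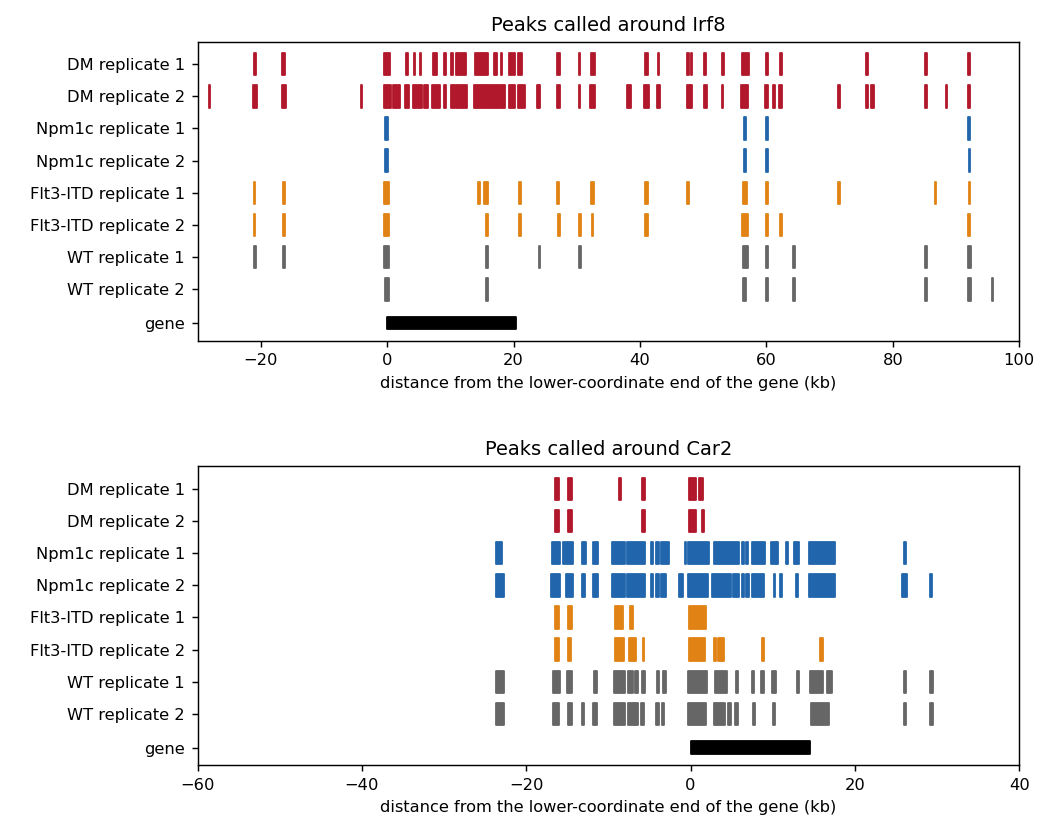
Peaks called (blocks) around Irf8 and Car2 in the 8 HSPC libraries, by distance in kb from the lower-coordinate end of the gene (black bar: gene body). Within the window drawn, Irf8 held 33 and 45 peaks in DM and 4 and 4 in Npm1c, and Car2 held 7 and 5 in DM and 23 and 25 in Npm1c.

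Monocyte, macrophage and dendritic cell genes had more covered bases in DM. Of 23 monocyte and macrophage genes tested, 20 had more and 1 fewer (31.7% more among all genes), and of 25 dendritic genes, 21 had more and 4 fewer. The medians were 0.90 and 1.09. Of the 281 regions of the monocyte and macrophage genes, 90 were gained (32.0%) and 33 lost (11.7%), and of the 320 regions of the dendritic genes, 86 were gained (26.9%) and 29 lost (9.06%). Irf8, a transcription factor required for monocytes and dendritic cells, gained 27 of its 45 regions, the most of any gene, and lost none. It had 18.7 and 27.7 kb of covered bases in DM against 1.30 and 1.21 kb in Npm1c. The DM libraries were far above the Npm1c libraries (3.73 ± 0.18, adjusted p = 3.16e-05). Since Irf8 stands in both lists, the gained shares were also taken without it and were 26.7% and 21.5%.

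Other genes of these lists differed in the same direction. Ly86 (MD-1, a partner of the receptor RP105) had 13.5 and 14.2 kb in DM against 2.78 and 1.80 kb (2.38 ± 0.17, adjusted p = 7.61e-05), with 14 of 26 regions gained. Csf1r, the receptor for macrophage colony-stimulating factor, had 3.21 and 3.96 kb against 0.899 and 1.09 kb (1.45 ± 0.13, adjusted p = 0.000181). F13a1 (coagulation factor XIII) had 4.39 and 4.63 kb against 0.817 and 1.02 kb (1.82 ± 0.12, adjusted p = 4.79e-05). Among the dendritic genes, 3 of MHC class II presentation are known to act in MHC class II presentation. Cd74, the invariant chain of MHC class II, had 11.6 and 12.8 kb against 2.46 and 2.06 kb (2.21 ± 0.12, adjusted p = 3.59e-05). H2-Aa rose by 1.91 ± 0.10, and Ciita, the master regulator of MHC class II genes, by 1.94 ± 0.17 (adjusted p = 3.59e-05 and 0.000164). Each of these 6 genes was higher in both DM libraries than in both Npm1c libraries. By mean percentile of peak width within the lists, the widest gained region lay 19 bp beyond an end of Cd74 (chr18:60810518-60814824), at 3314 and 4307 covered bp in DM and 0 in the other 6 libraries. Zeb2, a factor needed by monocytes and dendritic cells, differed in the reverse direction, with 23 of 39 regions lost and 7.15 and 6.64 kb against 25.7 and 24.7 kb (-1.80 ± 0.10, adjusted p = 4.01e-05). Tcf4 and Bcl11a, which act in plasmacytoid dendritic cells, fell by 0.50 ± 0.13 and 0.45 ± 0.10 (adjusted p = 0.0156 and 0.00794). The Tcf4 call was lost without DM replicate 1 (adjusted p = 0.0559) and without Npm1c replicate 1 or 2 (0.138 and 0.112), and the Bcl11a call without Npm1c replicate 2 (0.0685).

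Granule and neutrophil genes were also more covered, at 11 of 16 tested (1 fewer, median 0.93), with 30 of 111 regions gained (27.0%) and 11 lost (9.91%). Padi4, which citrullinates histones in neutrophils, had 1.60 and 1.74 kb in DM against 0.210 and 0 kb (1.86 ± 0.17, adjusted p = 0.000185). Csf3r, the receptor for granulocyte colony-stimulating factor, had 3.73 and 3.98 kb against 1.41 and 1.26 kb (1.25 ± 0.11, adjusted p = 0.000141). Mpo, myeloperoxidase, had 7.33 and 2.29 kb against 0.746 and 0.789 kb, so the DM replicates were far apart (1.88 ± 0.42, adjusted p = 0.00743), and the call was lost without either Npm1c library (adjusted p = 0.128 and 0.124). Promoter peaks were gained at Elane, Ltf, Padi4 and Prtn3 and lost at Camp and S100a9, which code for late granule and cytosolic proteins. Ly6g, which marks mature neutrophils, had no promoter peak in any of the 8 libraries.

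The shared myeloid transcription factors were among the more covered genes. Spi1, which encodes PU.1, had 7.44 and 7.51 kb in DM against 3.53 and 2.86 kb (1.11 ± 0.12, adjusted p = 0.000359). Cebpa had 7.58 and 6.67 kb against 2.69 and 2.98 kb (1.19 ± 0.12, adjusted p = 0.000223), and Cebpb 19.6 and 17.5 kb against 8.09 and 7.45 kb (1.20 ± 0.11, adjusted p = 0.000197). DM was higher in every library at these 3 genes. In the list of 47 blood transcription factors tested, 17 had more and 13 fewer covered bases, with a median of 0.13 near that of all genes. The factors with fewer were led by Ikzf2 (Helios, with 21 of 31 regions lost) at 2.82 and 3.34 kb against 20.5 and 21.0 kb (-2.57 ± 0.11, adjusted p = 2.8e-05). Nfia, a factor that favours erythroid over granulocyte fate, had the most lost regions of any gene (29 of 57) and fell by 1.20 ± 0.12 (adjusted p = 0.000286). Lmo2, the bridge of the TAL1 and GATA complex, had 5.58 and 5.92 kb against 15.6 and 14.7 kb (-1.32 ± 0.10, adjusted p = 0.000104). Runx1 rose by 0.42 ± 0.10, Runx2 by 1.40 ± 0.12 and Runx3 by 1.95 ± 0.10 (adjusted p = 0.0111, 0.000129 and 3.33e-05). The Runx1 call was lost without scaling (0.05, adjusted p = 0.672) and without Npm1c replicate 1 or 2 (adjusted p = 0.0528 and 0.0811).

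Lymphoid genes were more covered in DM as well, although the cells had been depleted of lineage-positive cells. Of 18 T and NK cell genes tested, 12 had more and 2 fewer (median 1.02), and 65 of their 185 regions were gained (35.1%), with 13 lost (7.03%). This was the highest gained share of the 19 lists as deposited, whereas at equal list lengths the monocyte and macrophage list stood at 34.2% and the T and NK list at 32.4%. Thy1, a surface protein of T cells and some progenitors, had 4.17 and 4.87 kb in DM and 0 covered bases in both Npm1c libraries. Il2rb, the receptor chain for interleukins 2 and 15, had 2.49 and 3.82 kb and 0 in both. Runx3 held 15 of the gained regions, and without it the gained share was 32.3%. Of 13 B lymphoid genes, 9 had more and 2 fewer. Pax5, the B cell identity factor, had 3.81 and 6.24 kb in DM against 0.454 and 0.453 kb (2.50 ± 0.20, adjusted p = 0.000116). Dntt, the enzyme that adds bases at antigen receptor joints in early lymphoid cells, had 3.13 and 3.54 kb against 0.892 and 1.34 kb (1.26 ± 0.15, adjusted p = 0.000565). Of the genes that define mature lymphocytes, Cd3e had no promoter peak in any of the 8 libraries and 2 regions called in DM replicate 2 alone. Both regions of Ms4a1 (CD20) were called in both DM libraries and in neither Npm1c library. The promoters of Cd8a, Lck, Prf1 and Tcf7 were gained, 4 of 19 T and NK genes with a window, against 2.10% of 17273 genes. The Tcf7 promoter was also called in both Flt3-ITD and both WT libraries. That of Prf1 was called in Flt3-ITD replicate 1 and WT replicate 1, and those of Cd8a and Lck in no Flt3-ITD or WT library. Of 13 stroma and endothelium genes, 7 had more and 1 fewer, with 29 of 143 regions gained (20.3%) and 19 lost (13.3%). Over the regions of the T and NK list, 67.6% and 82.7% were called in DM against 34.1% and 41.6% in Npm1c. Over those of the stroma and endothelium list these were 56.6% and 71.3% against 44.8% and 54.5%. The part of other cell types in these results was not tested.

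**Figure D3:**
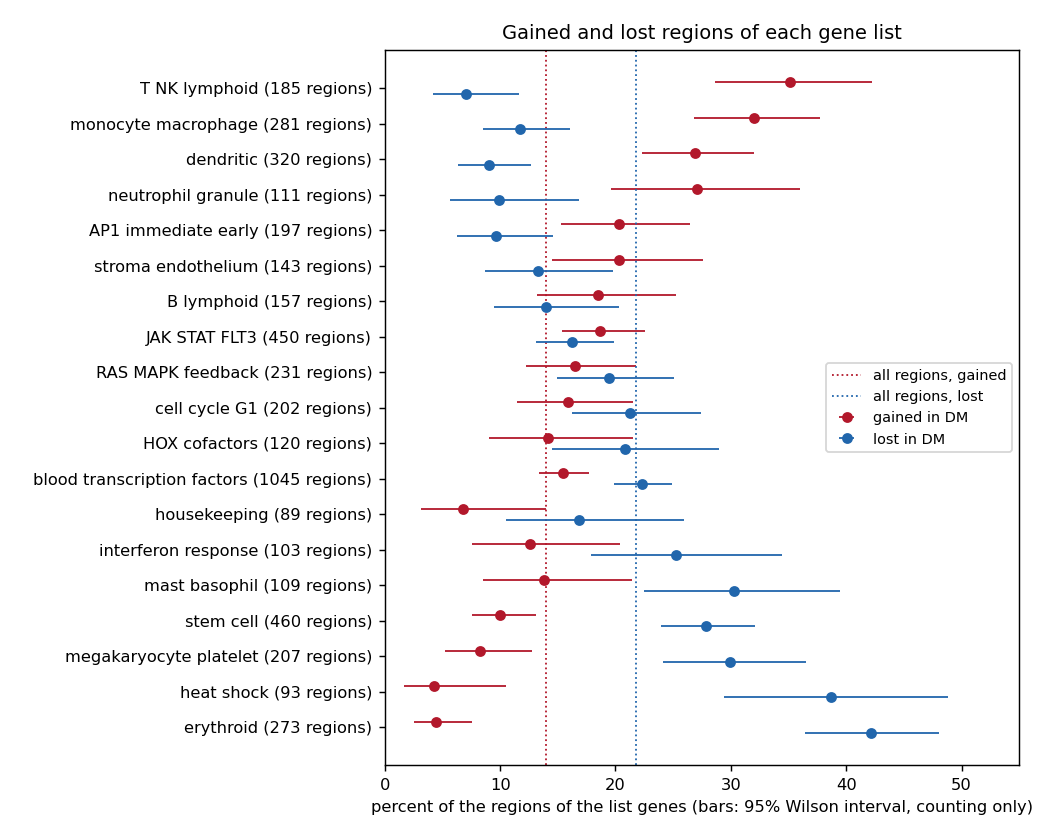
Percent of the regions of each gene list that were gained (red) or lost (blue) in DM, with 95% Wilson intervals that cover counting error only, and dotted lines at the shares of all regions (14.0% gained, 21.8% lost). T and NK, monocyte and macrophage, dendritic and neutrophil lists have gained shares of 27 to 35%, and the erythroid list has a lost share of 42.1%.

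Stem cell genes were split. Of 25 tested, 12 had fewer and 6 more covered bases (median -0.10), with 128 of 460 regions lost (27.8%) and 46 gained. Tek (TIE2, the angiopoietin receptor) had 0 covered bases in both DM libraries and 3.43 and 3.37 kb in Npm1c. Its ligand gene Angpt1 had 3.35 and 3.78 kb in DM against 11.3 and 11.5 kb (-1.55 ± 0.11, adjusted p = 6.54e-05). Mllt3, a factor that maintains stem cells, had 4.59 and 4.43 kb against 14.2 and 13.5 kb (-1.52 ± 0.10, adjusted p = 5.82e-05). Cd34 had 6.01 and 5.40 kb against 13.3 and 13.9 kb (-1.19 ± 0.11, adjusted p = 0.000173). Kit, the receptor for stem cell factor, had 3.13 and 4.43 kb against 6.59 and 7.36 kb (-0.82 ± 0.16, adjusted p = 0.00436), a call lost without either Npm1c library (adjusted p = 0.0653 and 0.0910). DM was lower at all 5 genes without overlap. The promoters of Kit, Cd34, Gata2, Runx1 and Ptprc were nevertheless called in all 4 libraries, which are defining genes of the labelled cells. Among the 7 that did not pass the test, Erg, Fli1, Gata2, Mecom and Msi2 had differences from -0.08 to 0.15.

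Of the 7 HOX genes tested, 2 had more covered bases and 5 did not pass the test (-0.29 to 0.16). Hoxb4 had 1.77 and 1.57 kb in DM against 0.831 and 0.611 kb in Npm1c (0.83 ± 0.13, adjusted p = 0.00147), and its promoter was gained. Hoxa9 had 4.99 and 4.88 kb in DM against 4.51 and 4.56 kb in Npm1c (0.11 ± 0.10, adjusted p = 0.373), and Hoxa10 had 6.35 and 5.74 kb against 5.36 and 5.32 kb (0.16 ± 0.11, adjusted p = 0.217). Of their cofactors, Meis1 had 9.04 and 8.23 kb against 12.6 and 14.5 kb (-0.62 ± 0.12, adjusted p = 0.00388), a call lost without Npm1c replicate 2 (adjusted p = 0.0556). Meis2 fell by 1.90 ± 0.17, and Mn1, a coactivator overexpressed in some myeloid leukemias, rose by 1.27 ± 0.11 (adjusted p = 0.00015 and 0.000141). Over the whole list of HOX genes and cofactors, 6 of 14 tested had more and 3 fewer, and 14.2% of regions were gained and 20.8% lost. These shares sat at the background and changed side of it under several settings.

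Flt3 itself, the receptor gene that carries the ITD, had 8.62 and 10.5 kb of covered bases in DM against 4.71 and 4.58 kb in Npm1c (0.96 ± 0.12, adjusted p = 0.000678). Its promoter region was covered over 1627 and 1886 bp in DM, 652 and 642 bp in Npm1c, 741 and 753 bp in Flt3-ITD and 1004 and 784 bp in WT. It was widest in DM and narrowest in Npm1c, with no overlap between the 4 groups. A region inside the gene (chr5:147351530-147352314) was gained, at 690 and 785 bp in DM, 0 in both Npm1c and both WT libraries, and 272 and 343 bp in Flt3-ITD. It was thus called in the 4 libraries with Flt3ITD/+ and in none of the 4 without. Npm1 had 1.77 and 1.57 kb in DM against 2.17 and 2.01 kb (-0.25 ± 0.11, adjusted p = 0.0787), and 2 of its 3 regions were lost. Mx1, whose promoter is the source of the Cre driver, had 1.17 and 1.55 kb against 1.13 and 0.683 kb (0.41 ± 0.18, adjusted p = 0.0855), with no region gained or lost.

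Genes of the JAK-STAT and FLT3 pathway, through which the receptor signals, were more covered in DM at 23 of 40 tested and less at 5 (median 0.48). Of their 450 regions, 84 were gained (18.7%) and 73 lost (16.2%). Over all genes 31.7% had more and 29.9% fewer, and 14.0% of all regions were gained and 21.8% lost. Socs3, Socs2 and Ccnd1 had the most gained regions of the list. Jak1 (14 of 35), Bcl2 (8 of 33) and Gab2 (7 of 14) had the most lost regions. Socs3 had 10.3 and 9.10 kb in DM against 2.22 and 1.75 kb (2.04 ± 0.13, adjusted p = 5.2e-05), and Socs2 had 7.74 and 8.26 kb against 1.57 and 2.01 kb (1.90 ± 0.13, adjusted p = 5.76e-05). Both inhibit cytokine receptors. Pim1, a survival kinase, had 14.2 and 13.8 kb against 6.21 and 5.76 kb (1.16 ± 0.10, adjusted p = 0.000161). Ccnd1, cyclin D1, had 10.3 and 11.02 kb against 2.81 and 3.29 kb (1.65 ± 0.12, adjusted p = 6.68e-05), and Cdkn1a, the inhibitor p21, had 5.94 and 5.68 kb against 1.45 and 1.04 kb (1.86 ± 0.14, adjusted p = 7.87e-05). DM was above Npm1c in every library at these genes. Among the signal carriers, Ptpn11 (the phosphatase SHP2) rose by 1.55 ± 0.11 and Stat5b by 0.63 ± 0.10 (adjusted p = 6.23e-05 and 0.00207), the latter not past the threshold without scaling (0.29, adjusted p = 0.106). Stat5a (0.13 ± 0.12) and Jak2 (-0.19 ± 0.11) did not pass. Jak1 had 7.56 and 6.81 kb against 16.2 and 16.7 kb (-1.14 ± 0.11, adjusted p = 0.000197), and Socs6 fell by 1.20 ± 0.13 (adjusted p = 0.000342). Without scaling, 14 genes of this list had more and 9 fewer.

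The RAS-MAPK branch and the immediate early genes that it induces gave a similar count. Of 23 RAS-MAPK feedback genes, 13 had more and 3 fewer, with 16.5% of their 231 regions gained and 19.5% lost, near the background. Dusp5, a phosphatase of ERK, had 10.2 and 11.9 kb in DM against 3.21 and 4.24 kb (1.46 ± 0.15, adjusted p = 0.000282). Nf1, which switches RAS off, rose by 1.31 ± 0.12, while Sos1, which switches it on, fell by 1.13 ± 0.10 (adjusted p = 0.000185 and 0.00016). Of 24 AP-1 and immediate early genes, 13 had more and 2 fewer, with 20.3% of 197 regions gained and 9.64% lost. Nr4a1, an orphan nuclear receptor, had 8.19 and 8.07 kb against 2.51 and 2.62 kb (1.49 ± 0.10, adjusted p = 5.81e-05). Fos had 17.3 and 18.1 kb against 10.8 and 11.3 kb (0.65 ± 0.10, adjusted p = 0.00158), a call lost without scaling (0.29, adjusted p = 0.108). Without scaling the RAS-MAPK list had 9 genes with more and 9 with fewer, and the AP-1 list 9 and 5.

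**Figure D4:**
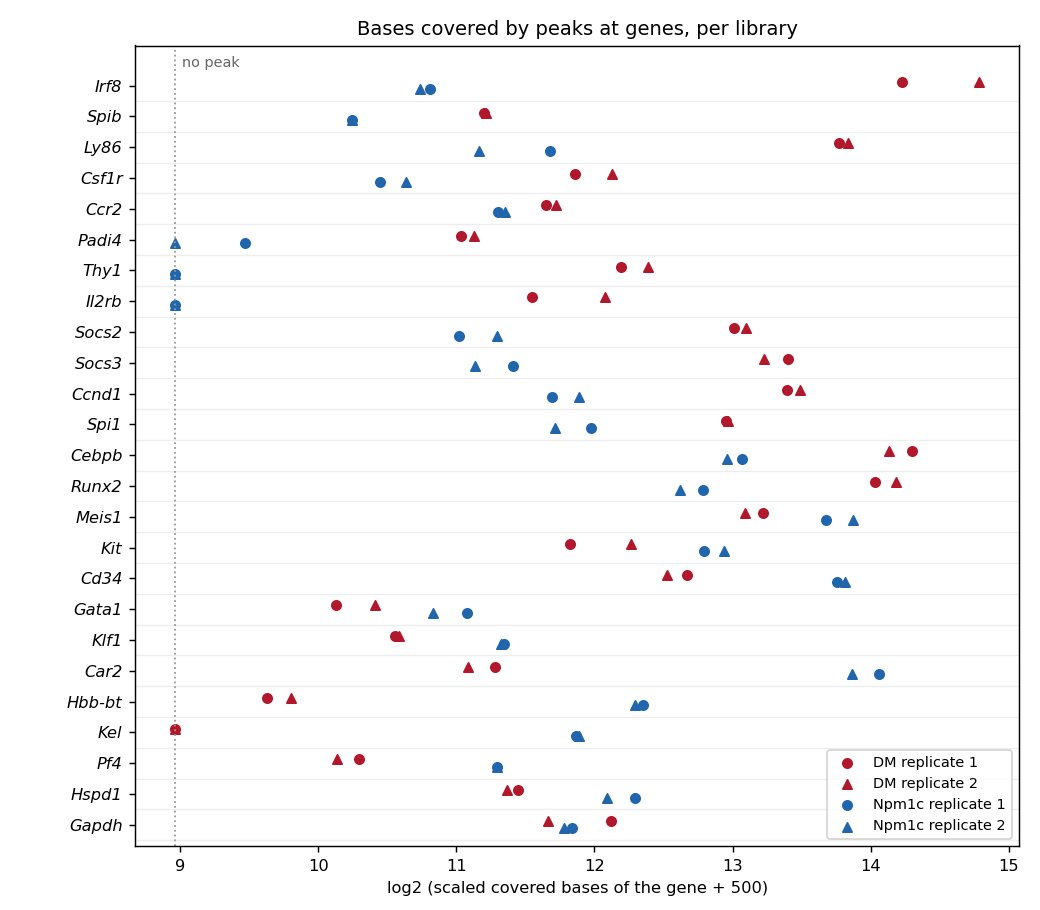
Log2 of scaled covered bases plus 500 for named genes in the 4 libraries (red: DM, blue: Npm1c; circles: replicate 1, triangles: replicate 2), with a dotted line where a gene holds no peak. From Irf8 to Runx2 the DM points lie to the right of the Npm1c points, from Meis1 to Hspd1 to the left, and at Gapdh the groups overlap.

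The lists of platelets, mast cells, heat shock and interferon response are read against 29.9% of all genes with fewer covered bases and 21.8% of all regions lost. Of 18 megakaryocyte and platelet genes, 9 had fewer and 3 more, and 62 of 207 regions were lost (30.0%). Pf4, platelet factor 4, had 0.756 and 0.624 kb in DM against 2.01 and 2.01 kb (-1.08 ± 0.11, adjusted p = 0.000255), whereas Itga2b, which encodes CD41, rose by 0.43 ± 0.11 (adjusted p = 0.0118). The Itga2b call was lost without scaling (0.13, adjusted p = 0.237) and without Npm1c replicate 1 or 2 (adjusted p = 0.0679 and 0.0901). Of 9 mast cell and basophil genes, 5 had fewer and 1 more (30.3% of 109 regions lost), and Cpa3, a mast cell protease, had 0 covered bases in both DM libraries and 1.25 and 2.35 kb in Npm1c. Of 16 heat shock genes, 6 had fewer (37.5%, near the background) and 1 more, while 36 of 93 regions were lost (38.7%). Hsph1, a chaperone, had 2.11 and 1.45 kb against 21.0 and 12.5 kb (-2.89 ± 0.25, adjusted p = 0.000145), and Hspe1, the mitochondrial co-chaperone, 0 in both DM libraries against 2.85 and 1.99 kb. DM was lower in each library at Hsph1 and Hspe1. Of 21 interferon response genes, 6 had fewer (28.6%, at the background) and 3 more, with Gbp2 at 0.421 and 0.711 kb against 3.03 and 3.42 kb (-1.82 ± 0.15, adjusted p = 0.000132) and Irf1 at 8.67 and 9.81 kb against 3.08 and 3.08 kb (1.44 ± 0.11, adjusted p = 9.07e-05). Of 20 genes of the G1 phase, 6 had more and 5 fewer. Of 18 housekeeping genes, 4 had more and 3 fewer, with differences from -1.12 to 0.37. The 4 with more were Actb, Polr2a, Ppia and Tubb5, and none of them passed without scaling.

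Over all genes tested, the 10 largest positive differences were those of Epha2, Irf8, Thy1, Clcf1, Col11a2, Neurl1b, Cux2, Septin3, Sema7a and Tgfbi, from 3.06 to 3.83. For a gene with no peak in 1 group, such a value depends on the 500 bases added and is no bound on the change. Epha2, an ephrin receptor, had 6.22 and 7.06 kb in DM and 0 in both Npm1c libraries, as did Clcf1, a cytokine of the interleukin 6 family, at 4.16 and 4.23 kb. The 10 largest negative differences, from -4.84 to -3.30, included those of Thsd7b, Zfp385b, Robo2, Ndst3, Brinp2, Epha4, Gm11677, Piezo2 and Pdzph1. Thsd7b had 22 of 29 regions lost and 14.2 and 13.6 kb in Npm1c, and 0 in DM. Robo2, an axon guidance receptor, spans 1555 kb. The median length of genes with fewer covered bases was 34.4 kb, of genes with more 23.2 kb and of all tested 25.5 kb. By number of regions, Prex1 (21 of 49), Septin9 (18 of 47), Gse1 (18 of 76) and Zfp469 (17 of 31) followed Irf8 among gained, and Sox5 (28 of 59), Pde4d (27 of 79), St6galnac3 (25 of 60) and Zeb2 followed Nfia among lost. Gse1 rose by the smallest amount of these (0.35 ± 0.10, adjusted p = 0.024).

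Lost regions, the larger set (21.8% of all regions against 14.0% gained), came in longer runs than gained regions. A larger set forms more and longer runs by its number alone, and the part of this was not tested. Counting uninterrupted series of merged regions, 57.7% of lost regions stood next to another lost region, against 44.9% of gained regions, and 336 runs of lost and 107 of gained regions held at least 5. The longest lost run had 15 regions over 266 kb at Thsd7b and Cd55b (chr1:130112619-130378403). The longest gained run had 11 regions over 65.5 kb at Pacsin1 and Rps10 (chr17:27637357-27702861). By mean percentile of peak width within the lists, the first lost region lay 2396 bp from Hbb-bt, the other adult beta globin gene (chr7:103808341-103811916), at 3576 and 3517 bp in Npm1c, 0 in DM and Flt3-ITD, and 1243 and 1382 bp in WT. It was followed by regions at Arpp21, Vps13d, Ttc27 and Car2, with 3074 to 3705 covered bp in Npm1c.

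Width gave a second measure that the gained and lost calls had not used. Among the 32228 regions called in all 4 libraries, 5597 were wider in DM (17.4%) and 8701 narrower (27.0%) after each library was centred on its median (limma with trend, adjusted p under 0.05). Of 8572 such regions at promoter windows, 44.4% were narrower and 7.34% wider, and of 22686 away from them, 20.3% were narrower and 21.1% wider. Wider regions made up 52.7% of 91 dendritic regions, 55.9% of 34 neutrophil regions, 47.7% of 44 T and NK regions and 44.0% of 75 monocyte and macrophage regions. The stroma and endothelium list stood in the same range, with 45.9% of 37 regions wider and 8.11% narrower. Narrower regions made up 44.8% of 58 erythroid regions. Width did not go with the gained and lost shares in every list: of 80 RAS-MAPK regions 16.3% were wider and 31.3% narrower, and 26.7% of 75 megakaryocyte and 17.2% of 29 mast cell regions were narrower. The regions of this test are none of the gained or lost ones, but the genes and libraries are the same. The most widened region lay 1268 bp from Pim1 (chr17:29496118-29498640), at 2346 and 2427 bp in DM against 294 and 350 bp in Npm1c, 937 and 588 bp in Flt3-ITD and 616 and 451 bp in WT (2.94 ± 0.11, adjusted p = 0.00021). Others lay near Cxxc5 and inside Fgd2, H2-Aa and Ryr1, with differences from 2.54 to 2.88. The most narrowed lay inside Tbc1d2b (chr9:90249069-90252246), at 266 and 229 bp in DM against 3081 and 3178 bp (-3.62 ± 0.13, adjusted p = 0.00021), followed by Usp25, Plscr2, Plxna2 and a region near Wapl (-3.48 to -3.35).

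The Flt3-ITD and WT libraries, which took no part in the calls, show how the same regions behave when the allele is present without Npm1c. Lost regions were called in 15.3% and 32.3% (Flt3-ITD replicates 1 and 2) and in 84.7% and 79.0% (WT), against 42.6%, 50.1%, 74.7% and 60.1% of all regions. The Flt3-ITD libraries thus fell below, and the WT libraries above, their own shares of all regions. Of the lost regions, 43.2% were called in both WT and neither Flt3-ITD library, a pattern held by 14117 of all regions (15.0%). Of these 14117 regions, 62.8% were lost in DM. Gained regions were called in 34.4% and 39.3% (Flt3-ITD) and in 49.6% and 14.5% (WT), so the 2 WT libraries were far apart. Only 670 of all regions (0.712%) were called in both Flt3-ITD and neither WT library. Of them 585, or 87.3%, were gained in DM, which made up 4.44% of gained regions. Each region counted here needed a DM or Npm1c peak, so regions called in Flt3-ITD or WT libraries alone are left out. The 62.8% and 87.3% are therefore not shares of all regions that differ between Flt3-ITD and WT. The opposite pairing was rare: 7 lost regions were called in both Flt3-ITD and neither WT library, and 234 gained regions in both WT and neither Flt3-ITD library. The Flt3-ITD lists were the shortest (43794 and 51702 peaks) and WT replicate 1 the longest (80878). With all 8 lists cut to 43794 peaks, 12088 regions were gained and 13508 lost. Of these, 24.0% of gained regions were called in both Flt3-ITD and neither WT library (4.28% of all regions), and 21.5% of lost regions in both WT and neither Flt3-ITD library (5.16% of all).

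**Figure D5:**
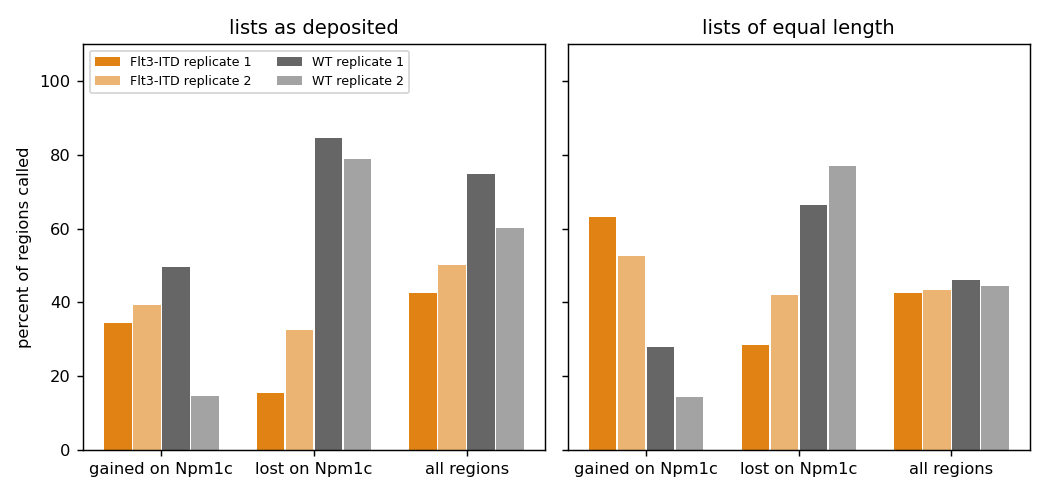
Percent of gained, lost and all regions called in each Flt3-ITD (orange) and WT (grey) library, with lists as deposited (left) and cut to 43794 peaks (right). Lost regions were called more often in WT than in Flt3-ITD libraries on both sides, and gained regions less often in WT than in Flt3-ITD libraries once list lengths were equal (63.1% and 52.5% against 27.9% and 14.3%).

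Whether the Flt3-ITD difference itself depended on Npm1c was tested with the interaction term over the 8 libraries, (DM minus Npm1c) minus (Flt3-ITD minus WT). Of 13426 genes, 1897 had a higher difference on Npm1c (14.1%) and 1632 a lower one (12.2%). Without scaling these were 1341 and 227, and without Npm1c replicate 1 they were 1094 and 692. Of 28 erythroid genes tested, 24 had a lower difference and 0 a higher one: the median was -1.33 for DM minus Npm1c and -0.11 for Flt3-ITD minus WT. Of 19 T and NK genes, 12 were higher and 0 lower, of 25 dendritic genes 11 and 1, and of 24 monocyte and macrophage genes 9 and 2. The stroma and endothelium list was alike, with 7 of 13 genes higher and 0 lower. Of 16 heat shock genes, 0 were higher and 6 lower. At Irf8 the scaled values over 8 libraries were 18.5 and 27.5 kb in DM, 1.29 and 1.19 kb in Npm1c, 8.50 and 6.12 kb in Flt3-ITD and 3.39 and 2.60 kb in WT. DM was highest and Npm1c lowest, and the interaction was 2.58 ± 0.30 (adjusted p = 0.00124). At Hbb-bs the values were 0 and 0, 2.40 and 2.20, 0.398 and 0.433, and 0.585 and 0.416 kb in the same order (interaction -2.36 ± 0.17, adjusted p = 0.000244, a size that depends on the 500 bases added). Npm1c stood apart there, above all other libraries. At Runx3 they were 18.2 and 18.6, 4.49 and 4.31, 19.03 and 18.1, and 11.7 and 10.2 kb, so DM and Flt3-ITD overlapped and Npm1c was lowest (interaction 1.21 ± 0.16, adjusted p = 0.00187). Meis1 had an interaction of 0.04 ± 0.17 (adjusted p = 0.897), with differences of -0.62 on Npm1c and -0.65 on WT. For Pim1 the interaction did not pass (0.46 ± 0.15, adjusted p = 0.0534).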

How the data were processed

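ATAC-seq peak lists of 8 HSPC libraries were analysed, 2 per genotype. Per the submitters' processing notes, reads were aligned with Bowtie2 to mm10 and peaks called with MACS2. Not given in the sources used here are versions, calling thresholds, duplicate removal and the shift of reads for the transposase cut. Each deposited list has the position of its peaks and no score, count or height, so the presence and width of a peak are the only values, and a more deeply sequenced library can list more and wider peaks. Replicates are called biological in the labels, and every library has its own deposited list.

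The 4 DM and Npm1c lists were merged (at least 1 bp shared), without Y and unplaced sequence. Regions were assigned to the RefSeq gene that holds them or the nearest within 100 kb (94.6% were assigned, to a set of 21630 genes). Covered bases per gene were scaled to the mean library total and tested as log2(bases + 500) with limma 3.58.1 (R 4.3.3), two-sided, with Benjamini-Hochberg adjustment, for genes with a mean of at least 500 bases. All adjusted p-values in the text are limma's, at a threshold of 0.05. Widths in regions called in all 4 libraries were tested with limma's trend option, and the interaction over 8 libraries. On simulated data with 200 changed features, the gene test recovered 55.5% of genes changed by 1 on the log2 scale and 92.5% changed by 2. The width test over 32228 regions recovered 0% and 77.5%. In the real data 61.6% of genes were called, a far larger share than was changed in the simulation. Recovery after adjustment depends on that share, so these values do not give the sensitivity of the fits reported. Other analyses used Python 3.11.15. Promoter windows (300 bases) come from RefSeq, GRCm38.p6, and 17273 genes had one, none of them on chromosome 18.

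The 446 genes of the 19 lists (444 matched) and the comparison itself were chosen with earlier results of these data known. Genes are named by rule: Npm1, Flt3 and Mx1; per list and direction up to 3 genes with the most gained or lost regions; the 5 genes with the most of either; the 5 widest gained and lost regions; the 10 largest differences per direction; the 5 most widened and narrowed regions; and list genes past the threshold. List genes named without passing it (Hoxa9, Hoxa10, Stat5a, Jak2, Tfrc and 5 stem cell genes) were picked after their values were seen. The alternatives were equal list lengths, no scaling, other minimum widths, overlaps, pseudocounts and gene distances, a replicate block, and each library left out in turn. Counts on chromosomes 1 to 19 alone, and library totals without each replicate, were added after seeing the data. Some genes that the rule names are not reported here.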

Additional observations from a re-analysis of the deposited data

Results flagged for a closer look

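DM replicate 1 held 4 peaks and Flt3-ITD replicate 1 held 3 peaks at Y-linked genes, on a chromosome that no comparison used, and the other 6 libraries held none.

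List genes were searched among those that passed the interaction test (limma, adjusted p under 0.05). At 28 of them the DM and Npm1c libraries were fully apart in 1 direction, and the Flt3-ITD and WT libraries in the other. Passing the test was thus a condition of the search, and list genes with opposite directions that failed it were not counted. Over all genes the interaction was higher at 14.1% and lower at 12.2%. Only list genes were searched, so no share of all genes stands beside the 28. The Flt3-ITD minus WT direction was not itself tested, and its size ran from 0.07 (Cdkn1b) to 1.17 (Ly6c2). The values are (DM minus Npm1c) minus (Flt3-ITD minus WT) on the log2 scale. The erythroid genes among them were lower: Trim10 was at -1.70, Epb42 at -1.50, Epor at -1.31, Klf1 at -1.23, Gfi1b at -1.14, Zfpm1 at -0.85 and Sptb at -0.78. The platelet genes Tubb1 (-1.91), Gp5 (-1.50), Pf4 (-1.44) and Gp9 (-0.74) were lower too. The lymphoid genes Tcf7 (1.90), Lef1 (1.64), Cd2 (0.85) and Lck (0.56) were higher. Among myeloid genes, Padi4 (2.49), Cxcr2 (1.61), Batf3 (1.35) and Maf (1.09) were higher and Ly6c2 (-1.52) was lower. Kdr was at 1.33, Cdkn2a at 1.08, Etv4 at 0.93 and Prdm16 at 0.91, and Hspd1 was at -1.02, Egr1 at -0.89, Hsp90aa1 at -0.80 and Cdkn1b at -0.80.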

How the results depend on the processing

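Lost regions outnumbered gained regions under every setting tried. Genes with more covered bases outnumbered those with fewer as reported, but not without scaling (2293 against 5866) or without DM replicate 1 (3450 against 3622). Peaks of at least the median width gave 6788 gained and 10526 lost regions. Leaving out 1 library in turn gave 14243 to 21841 gained and 22085 to 27082 lost regions, with the highest gained count without DM replicate 1. The same omissions gave 2694 to 3465 genes with more and 2426 to 3622 with fewer covered bases. They make fewer calls because 1 group then has 1 library, which is assumed to vary like the other group. Without scaling, 49 of 267 named or listed genes that were called lost the call, and Gse1 reversed to -0.0221 (adjusted p = 0.845). The interaction gave 1341 higher and 227 lower without scaling, and 1057 to 2072 higher and 692 to 1711 lower without 1 library. With equal lists, 24.0% of gained regions were called in both Flt3-ITD and neither WT library, and 21.5% of lost regions in both WT and neither Flt3-ITD library, where the shorter Flt3-ITD lists no longer differ in length. The HOX, G1 phase, mast cell and interferon lists changed side of the background in at least 1 setting. The number of peaks is the only measure of depth, so a region without a peak is not shown to be closed.

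No label pairs the samples by replicate number. Same-numbered libraries deviated from their group means with a correlation of 0.0379 over genes and 0.00626 over widths, across 2 pairs. With 2 libraries per group, such values cannot show whether the samples were paired. With the replicate number as a block, 4148 genes had more and 3920 fewer covered bases, 4971 regions were wider and 8201 narrower, and the interaction called 1848 higher and 1442 lower.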
